A study of Astyanax mexicanus with 8 samples.

Results

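Spheroids of the cave-derived cell line CFL were compared with spheroids of the surface-derived cell line SFL at the 2 larger seeding densities, 50000 and 100000 cells per well. The members were the 4 libraries whose column titles name these lines and densities, of 8 in the series: CFL at 50000 and 100000 cells, and SFL at 50000 and 100000 cells. Both lines derive from the liver of the Mexican tetra Astyanax mexicanus, and the titles call CFL "Pachon", a cave population. Cells of each line were left to aggregate in round-bottom wells they cannot attach to and were kept at 27 °C to day 28; no genetic change or treatment is given for either line. The other 4 libraries, at 10000 and 25000 cells per well, are called small spheroids here and serve to set the spread and to show where the larger spheroids differ. Each form of the fish is represented by 1 line, so a difference between the lines cannot be told apart from one between cave and surface fish.

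Astyanax mexicanus has eyed forms in surface rivers and eyeless, pale forms in caves, and cave populations are known for large fat stores and raised blood glucose in the whole animal. In the liver, hepatocytes make most plasma proteins, synthesise cholesterol and fatty acids, make and release glucose, and detoxify foreign compounds. Cell lines grown from liver often keep only some of these programmes. In a spheroid, oxygen and nutrients reach the core by diffusion, so supply depends on the size of the aggregate.

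RNA levels are in TPM, which counts transcripts per 1000000 transcripts of a library after dividing reads by transcript length. The depth of the libraries is unknown, and TPM is relative, so a gene can fall because others take a larger share. Where 2 TPM values of a line are given, the library at 50000 cells comes first and that at 100000 cells second. The labels give no replicate at either density, so the 2 libraries of a line stand in for replicates, their spread includes any effect of density, and nothing says whether they came from separate cultures. Differences, also where a bare number in brackets follows TPM values, are CFL minus SFL on the scale log2(TPM + 1), which understates the change of low genes, with a standard error (SE) and a p-value from limma, adjusted by the Benjamini-Hochberg method over 13783 genes. The most abundant member of a list is the one with the highest mean in either line. A gene is called where the limma adjusted p is under 0.05, and in bulk RNA fewer cells of a type cannot be told apart from less RNA per cell. Named genes were mostly chosen for large called differences. Where they separate the lines at both densities, this follows from the choice and is no further support. The share of all tested genes whose libraries do not overlap between the lines was not counted. Between 17819 and 19046 of 27420 genes were above 0 in CFL and between 17935 and 18089 in SFL. The 10 most abundant genes held 19.3% and 18.4% of all TPM in CFL, against 14.9% and 14.5% in SFL, and genes for cytosolic ribosomal proteins held 27.8% and 23.5% in CFL, against 22.6% and 20.9% in SFL. Both measures were lower in small spheroids of the same line (at most 15.7% and 21.7% in CFL, and 11.7% and 17.6% in SFL). The part of these shares in the differences below was not tested, beyond the scalings given in the closing section.

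Most tested genes differed between the lines. The difference was called for 7857 of 13783 genes (57.0%), of which 3613 (26.2%) were higher and 4244 (30.8%) lower in CFL. For 4094 genes (29.7%) it was called and at least 2-fold, with 1901 (13.8%) higher and 2193 (15.9%) lower. At least 16-fold differences were called for 118 higher and 186 lower genes, and at least 64-fold ones for 25 higher and 40 lower genes. The balance of directions turned with the scaling, to 4205 genes higher against 4185 lower with median-of-ratios factors, and 4325 against 4011 with equalised quantiles. It was 3710 higher and 3490 lower without the CFL library at 50000 cells, and 2915 higher and 4481 lower without that at 100000 cells. All 7857 called genes had the same sign at 50000 and at 100000 cells. This is no separate check, because the call rests on the mean of these same 2 libraries of each line. Taken alone and with no test, 4234 genes (30.7%) differed at least 2-fold at 50000 cells and 4288 (31.1%) at 100000 cells. Across the 13783 genes, which are not independent replicates, the line difference at 50000 cells and that at 100000 cells had a Pearson r of 0.949, and the median gap between them was 0.21 on the log2 scale. The median difference of all tested genes was -0.06, and it was -0.0020 with median-of-ratios scaling in place of TPM and 0.017 when quantiles were equalised, so differences near 0 take their sign from the scaling.

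**Figure D1:**
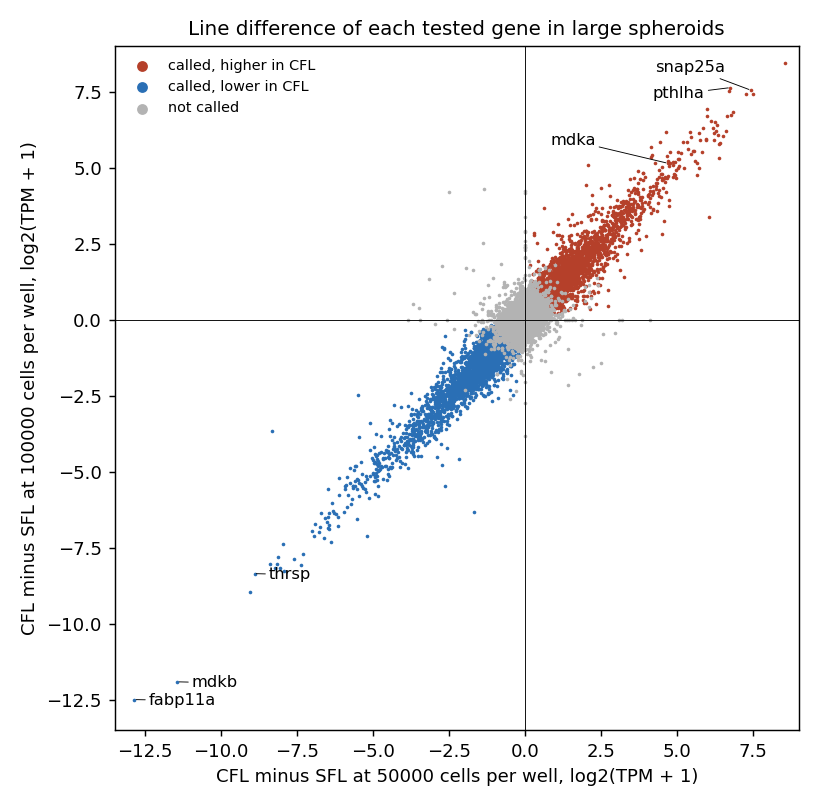
Each point is 1 tested gene, with its CFL minus SFL difference in log2(TPM + 1) at 50000 cells per well on the horizontal axis and at 100000 cells on the vertical axis. Red points are called higher in CFL, blue points called lower, grey points not called. The points lie along the diagonal (r = 0.949), and the gene for the fatty acid-binding protein fabp11a and the growth factor gene mdkb lie farthest out at the lower left.

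Genes at the top of the rises came from several unrelated functions. The largest was in snap25a (ENSAMXG00000009864), a SNARE protein that joins vesicles to membranes in neurons, at 745 and 751 TPM in CFL against 3.37 and 3.02 TPM in SFL. The log2 difference was 7.48 (SE 0.10, limma adjusted p = 6.69e-09). The 2 CFL libraries were nearly equal and both lay far above SFL. pthlha, which encodes a parathyroid hormone-like peptide, stood at 206 and 260.1 TPM in CFL against 0.94 and 0.32 TPM in SFL (log2 difference 7.18, SE 0.22, limma adjusted p = 2.07e-07). dkk3b, a secreted member of the dickkopf family, stood at 249 and 419 TPM in CFL against 1.19 and 2.66 TPM in SFL, a log2 difference of 6.84 (SE 0.42). It was the less even of these genes, with the 100000-cell library higher in both lines.

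Transcription factors were among the rises too. pax6a, a homeobox gene of eye, brain and pancreas development, was at 78.6 and 83.2 TPM in CFL and listed at 0 in both SFL libraries (limma adjusted p = 4.77e-08). hnf1bb, a hepatocyte nuclear factor of bile duct and kidney development, was at 225 and 299 TPM in CFL against 2.25 and 2.26 TPM in SFL, a log2 difference of 6.32 (SE 0.17). Both genes were high in both CFL libraries and at or near the bottom of the scale in SFL. cdh17, the liver-intestine cadherin, stood at 209 and 338 TPM in CFL against 1.33 and 4.16 TPM in SFL (log2 difference 6.27, SE 0.44). Its SE was the largest of the rises named here.

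The remaining rises were in enzymes, carriers and secreted proteins. cdaa, a cytidine deaminase, was the most abundant of them, at 1223 and 973 TPM in CFL against 13.3 and 16.4 TPM in SFL. crabp2b, which carries retinoic acid inside cells, stood at 107 and 102 TPM in CFL against 0.49 and 0.3 TPM in SFL. fstl1a, a follistatin-like secreted glycoprotein, stood at 146 and 109 TPM in CFL against 0.77 and 1.03 TPM in SFL. Their log2 differences were 6.11, 6.25 and 6.07. C15orf48, a mitochondrial protein related to a cytochrome oxidase subunit in human cells, was at 145 and 183 TPM in CFL against 1.29 and 0.78 TPM in SFL. akr1b1.1, an aldo-keto reductase, is the symbol of 4 tested genes; the one with this rise was at 87.1 and 106 TPM in CFL against 0.52 and 0.37 TPM in SFL. Of the other 3 genes with that symbol, 2 were lower in CFL (-3.68 and -2.82) and 1 was not called. The log2 differences of the 2 rises were 6.34 and 6.07, and the limma adjusted p of the 11 rises ran from 6.69e-09 to 1.13e-05.

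The largest falls exceeded the largest rises. fabp11a (ENSAMXG00000037422), a fatty acid-binding protein and the most abundant gene of both SFL libraries, stood at 3.24 and 4.5 TPM in CFL against 31232 and 31683 TPM in SFL. The log2 difference was -12.67 (SE 0.21, limma adjusted p = 1.75e-08). mdkb, a midkine growth factor, was at 0.24 and 0 TPM in CFL against 3426 and 3842 TPM in SFL, a log2 difference of -11.67 (SE 0.14). Each of the other named falls had CFL libraries at most at 6.74 TPM and SFL libraries at least at 146 TPM.

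Several of these falls were in genes of lipid metabolism. thrsp, which is linked to fat synthesis in mammals, stood at 0.42 and 0.69 TPM in CFL against 676 and 551 TPM in SFL (log2 difference -8.62). me1, the cytosolic malic enzyme that supplies NADPH for fat synthesis, stood at 2.13 and 0.84 TPM in CFL against 518 and 497 TPM in SFL (-7.73). scd, a desaturase that makes monounsaturated fatty acids, stood at 6.74 and 4.43 TPM in CFL against 642 and 866 TPM in SFL (-6.85). In all 3 SFL was higher at both densities, as the rule that chose them required. slc2a1a, a gene of the glucose transporter GLUT1, stood at 0.05 and 0.09 TPM in CFL against 164 and 227 TPM in SFL (-7.50). The gene of the paired symbol, slc2a1b, was present in both lines. It stood at 37.6 and 55.3 TPM in CFL against 35.9 and 59.5 TPM in SFL and was not called (limma adjusted p = 0.956). rbp4, the retinol carrier that hepatocytes secrete, stood at 0.17 and 0.1 TPM in CFL against 226 and 258 TPM in SFL (-7.74).

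The other falls covered muscle, neuronal and membrane proteins. tnnt3b, a troponin T of fast muscle, was at 1.96 and 3.66 TPM in CFL against 818 and 1033 TPM in SFL (log2 difference -7.95). uchl1, a ubiquitin hydrolase abundant in neurons, was at 0.78 and 0.93 TPM in CFL against 509 and 508 TPM in SFL (-8.10), with SFL values equal within 2 TPM. aoc1, a diamine oxidase, was at 0.06 and 0.06 TPM in CFL against 256 and 326 TPM in SFL (-8.09). In each, SFL was higher at both densities, as the rule required. anxa6, an annexin that binds membranes in the presence of calcium, was at 0.19 and 0.48 TPM in CFL against 146 and 203 TPM in SFL (-7.03). soul5, of the SOUL family of heme-binding proteins, was at 0.67 and 0.7 TPM in CFL against 182 and 215 TPM in SFL (-6.88). Across the 12 falls the limma adjusted p ran from 6.69e-09 to 2.03e-06.

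**Figure D2:**
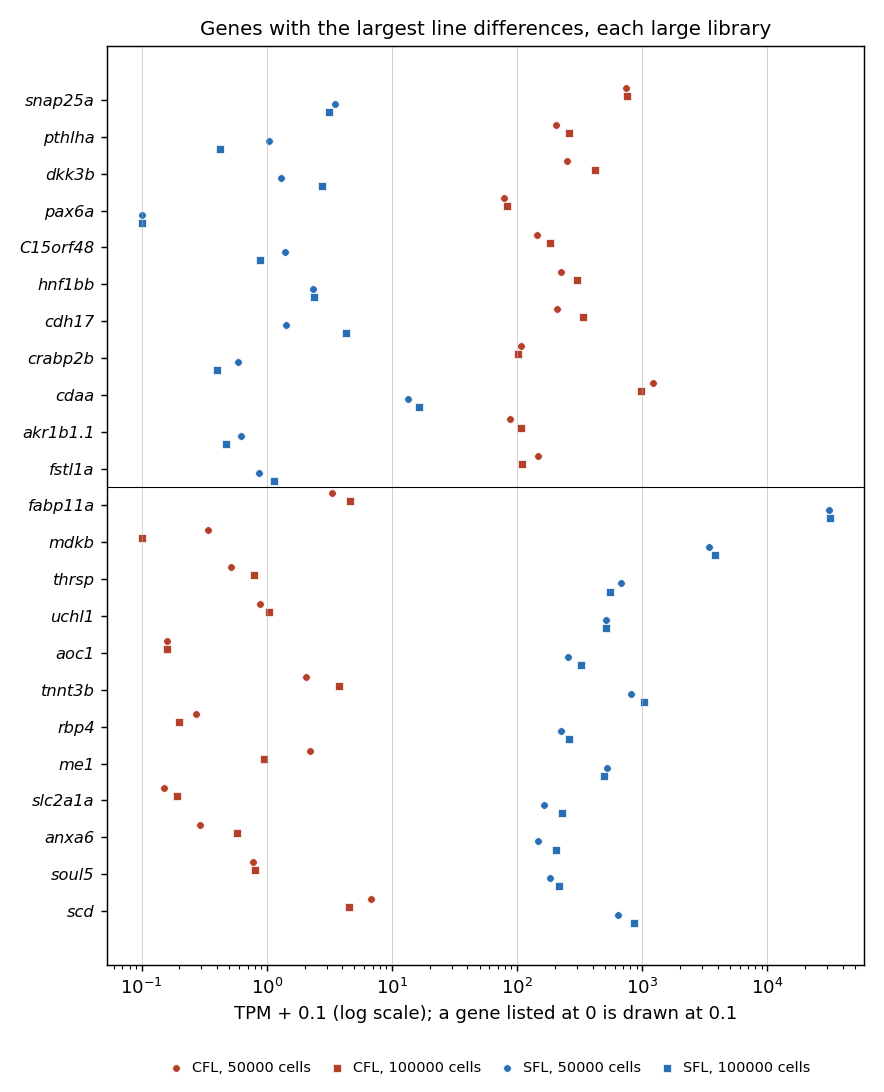
TPM + 0.1 on a log scale for the 11 largest rises (above the line) and 12 largest falls (below it), with CFL in red above SFL in blue for each gene. Circles are libraries at 50000 cells and squares libraries at 100000 cells, 1 library each. The lines are separated by more than a factor of 10 in every gene shown, while the 2 densities of a line mostly lie close together. The genes were chosen for the size of this difference.

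Gene functions were then described with 36 lists of genes, of which 35 had tested members. Against 26.2% higher and 30.8% lower among all tested genes, the highest share of lower calls was in cholesterol synthesis (85.3%) and the highest share of higher calls in mitosis (78.4%). The tests are of single genes, adjusted over all 13783, and the lists themselves were not tested. These shares of all tested genes are the reference for every count of called list members and markers below. A count near them is no result about its list.

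**Figure D3:**
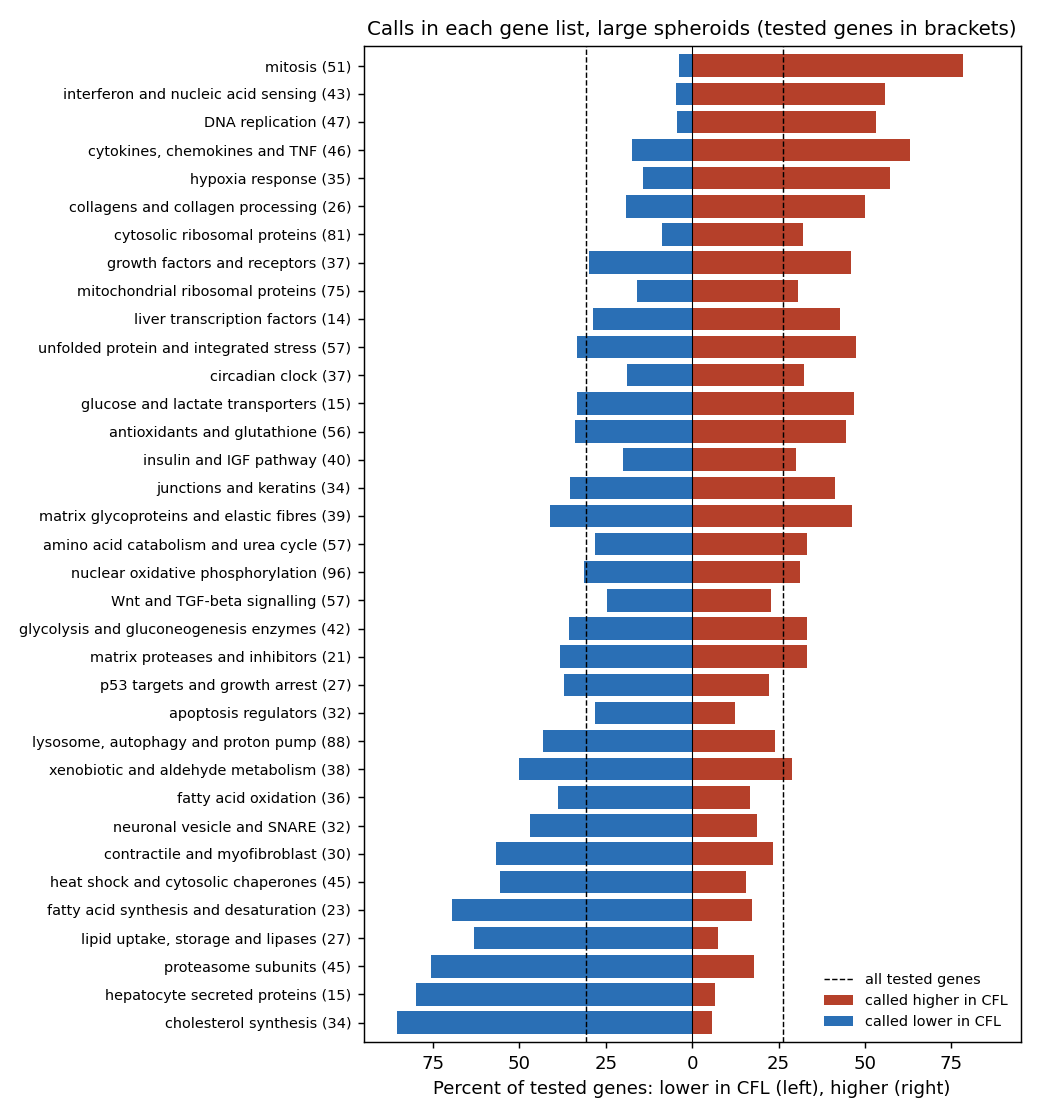
Percent of the tested genes of each list that were called, lower in CFL to the left (blue) and higher in CFL to the right (red), with the number tested in brackets. Dashed lines mark all 13783 tested genes (30.8% lower, 26.2% higher). Mitosis, interferon and DNA replication genes stand at the top of the list, and proteasome subunits, hepatocyte secreted proteins and cholesterol synthesis at the bottom.

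The tested genes of hepatocyte products were mostly lower in CFL than in SFL. Of 37 secreted-protein genes in the table only 15 were tested, and 12 of these were lower and 1 higher in CFL, with a median log2 difference of -1.84 against -0.06 over all tested genes. apoeb, the most abundant, encodes apolipoprotein E of lipoprotein particles and stood at 2349 and 2781 TPM in CFL against 6126 and 6730.4 TPM in SFL (log2 difference -1.33, SE 0.14, limma adjusted p = 0.000103). apoc2, the cofactor of lipoprotein lipase, stood at 21.8 and 44.5 TPM in CFL against 1319.8 and 1622 TPM in SFL (-5.51, SE 0.28). hp, the haemoglobin scavenger haptoglobin, stood at 0.06 and 0.64 TPM in CFL against 23.1 and 31.4 TPM in SFL (-4.41, SE 0.24). In these 3 genes the lines did not overlap, which for apoc2 and hp was made likely by their choice for size. The gene called higher was igfbp1a, a binding protein of insulin-like growth factors, at 223 and 241 TPM in CFL against 19.7 and 21.2 TPM in SFL (3.44, SE 0.15). apoa4a, an apolipoprotein of dietary fat transport, was uneven in SFL, with 1.05 and 4.55 TPM in CFL against 11.6 and 248 TPM in SFL (-4.05, limma adjusted p = 0.0179). The difference was -1.91 (limma adjusted p = 0.032) without the SFL library at 100000 cells and -6.20 without that at 50000 cells. The call was lost without the CFL library at 50000 cells (0.1), in the 4 large libraries alone (0.0579) and with no filter on low values (0.051). Another 2 genes are listed as apoa4a and neither was called.

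Hepatocyte markers were uneven. ttr was listed at 0 in all 4 libraries, and fabp10a stood at 2.05 and 0.62 TPM in CFL and was listed at 0 in SFL. The transcription factor hnf4a stood at 0.27 and 0.11 TPM in CFL against 0 and 0.29 TPM in SFL. Of 21 hepatocyte markers in the table, 7 were tested, and 6 of them were lower and 1 (cps1, of the urea cycle) higher in CFL. Summed over the 21, the level was 18.8 and 35.4 TPM in CFL, against 416 and 456 TPM in SFL, of which rbp4 made up the largest share in SFL. cebpa, hp and fgb, a fibrinogen chain, were also present in SFL, fgb at 2.78 and 6.42 TPM in CFL against 41.7 and 43.8 TPM in SFL. In all, 10 of the 21 markers were under 1 TPM in all 4 libraries, and the part of cell identity in the differences was not tested.

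Liver transcription factors split in both directions. Of 14 tested, 6 were higher and 4 lower in CFL (42.9% and 28.6%, against 26.2% and 30.8% of all tested genes), with a median of 0.04. Among the higher ones was nr5a2, a nuclear receptor of bile acid synthesis, at 8.62 and 12.03 TPM in CFL against 0.28 and 0.15 TPM in SFL (log2 difference 3.21, SE 0.20). cebpa, a factor of hepatocyte and fat cell differentiation, was lower, at 4.81 and 13.7 TPM in CFL against 114 and 103 TPM in SFL (-3.56, SE 0.36). gata6, an endoderm and mesoderm factor, was listed at 0 in both CFL libraries and stood at 20.4 and 28.5 TPM in SFL (limma adjusted p = 5.66e-07). Each of these 3 genes separated the lines at both densities, as their choice for called differences made likely.

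Markers of other cell types were also counted in each line, against 26.2% higher and 30.8% lower among all tested genes. Of 13 tested biliary markers, 5 were higher and 7 lower in CFL: hnf1bb, cdh17, her6, sox9a and spp1 rose, while krt4, krt8, krt18a.1, krt18b, anxa4, hnf1ba and prom1a fell, and epcam and cftr were under 0.3 TPM in every library. spp1, the matrix protein osteopontin, stood at 92.3 and 80.1 TPM in CFL against 6.07 and 4.95 TPM in SFL (log2 difference 3.75, SE 0.16). The biliary sum was 2343 and 2445 TPM in CFL, against 16898 and 13397 TPM in SFL, most of it keratins. Of 12 tested stellate and fibroblast markers, 5 were higher and 7 lower, with sums of 389 and 434.5 TPM in CFL against 758 and 755 TPM in SFL; hand2 was listed at 0 in all 4 libraries. Of 5 tested muscle markers, 1 was higher and 4 lower, with sums of 5.02 and 7.05 TPM in CFL against 876 and 1108 TPM in SFL. Most of the SFL sum was tnnt3b, while hand2 and tbx20 were listed at 0 in all 4 libraries.

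Blood and vessel markers were low in both lines apart from single genes. Endothelial cdh5 was listed at 0 in all 4 libraries and pecam1 at 0.04 TPM or less. The growth factor receptor genes kdr and kdrl were nevertheless lower in CFL, and kdr stood at 2.27 and 2.51 TPM in CFL against 75.4 and 70.8 TPM in SFL (log2 difference -4.45, SE 0.12). In all, 4 of 5 tested endothelial markers fell, against 30.8% of all tested genes. Their list sums were 18.8 and 21.4 TPM in CFL against 128.5 and 136 TPM in SFL. Of 3 tested genes of the macrophage and leukocyte list, itgb2, an integrin of white blood cells, was higher, at 41.9 and 51.5 TPM in CFL against 24.4 and 24.5 TPM in SFL. MPEG1, a macrophage gene and the most abundant of the list, was at 34.9 and 53.4 TPM in CFL against 50.1 and 56.8 TPM in SFL and was not called. The other, cd3eap, is no leukocyte marker in spite of its name and was not called. With cd3eap included, the list sums were 85.6 and 113 TPM in CFL against 86.1 and 92.2 TPM in SFL. PTPRC, the pan-leukocyte gene, was at most 0.26 TPM. Of 5 tested erythroid markers, 3 were higher and 2 lower (sums of 146.5 and 143.0 TPM in CFL, against 82.9 and 93.8 TPM in SFL), with gata1a listed at 0 in all 4 libraries. The higher ones were ca2, slc4a1a and 1 of 2 genes listed as tfr1a, and ca2 made up most of the CFL sums, at 117 and 110 TPM. The lower ones were the other tfr1a and hemgn, at 8.5 and 7.13 TPM in CFL against 30.6 and 34.0 TPM in SFL. The globin genes hbaa2 and hbba2 were at most 0.2 TPM. The part of other cell types in the results that follow was not tested.

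Sterol synthesis was the list with the highest share of falls. Of 34 tested genes, 29 were lower and 2 higher in CFL, with a median log2 difference of -2.06. ebp, a sterol isomerase near the end of the pathway, was at 0.14 and 0.07 TPM in CFL against 46.1 and 35.01 TPM in SFL (log2 difference -5.22, SE 0.19, limma adjusted p = 3.86e-07). hmgcs1, which makes HMG-CoA at the start of the pathway, was at 5.11 and 5.96 TPM in CFL against 90.7 and 82.4 TPM in SFL (-3.75, SE 0.12). cyp51, the lanosterol demethylase, is listed as 2 genes, whose reads may have been divided between them. The more abundant was at 8.59 and 17.2 TPM in CFL against 286 and 248 TPM in SFL (-4.34) and the other at 3.84 and 8.03 TPM in CFL against 129.7 and 127 TPM in SFL (-4.29). Every one of these values was lower in both CFL libraries than in both SFL libraries, as the choice of the genes made likely. npc2, the lysosomal cholesterol carrier and most abundant gene of the list, was at 1530.2 and 1821 TPM in CFL against 2725 and 2433 TPM in SFL, a smaller log2 difference of -0.62 (SE 0.11).

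Further enzymes and regulators of the pathway, chosen for their place in it after their values were seen, fell as well. hmgcra, the rate-limiting HMG-CoA reductase, was at 13.1 and 16.7 TPM in CFL against 157 and 176 TPM in SFL (log2 difference -3.40). sqlea, squalene epoxidase, was at 3.4 and 5.52 TPM in CFL against 60.6 and 71.1 TPM in SFL (-3.64). srebf2, the transcription factor that drives the pathway, was at 14.3 and 18.2 TPM in CFL against 43.3 and 48.3 TPM in SFL (-1.45). The difference was thus larger for both enzymes than for the factor on this scale, a comparison that was not tested. The 2 genes called higher were ggps1, an isoprenoid enzyme, and 1 of 2 genes listed as stard4, a sterol carrier. That copy was at 6.83 and 8.79 TPM in CFL against 1.55 and 2.01 TPM in SFL (1.66), while the other was at 8.52 and 11.7 TPM in CFL against 48.2 and 55.5 TPM in SFL (-2.26), so the copies moved in opposite directions.

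Genes of fatty acid synthesis and desaturation were mostly lower in CFL. Of 23 tested genes, 16 were lower and 4 higher in CFL, with a median of -1.16. Besides thrsp, me1 and scd, the largest fall was in fads2, a desaturase of polyunsaturated fatty acids, at 2.74 and 2.7 TPM in CFL against 333 and 426 TPM in SFL (log2 difference -6.67, SE 0.14). fasn, fatty acid synthase, named after its values were seen, was at 12.1 and 16.4 TPM in CFL against 116 and 130.4 TPM in SFL (-3.04, SE 0.15). The 4 higher genes were acsl1b, acsl4a, elovl5 and scdb. scdb, another desaturase gene of this family, was at 108 and 159 TPM in CFL against 64.05 and 99.8 TPM in SFL (0.71, SE 0.23), so scd and scdb differed in opposite directions. pgd, an NADPH-forming enzyme and the most abundant member, was at 847 and 937 TPM in CFL against 954 and 975 TPM in SFL and was not called (limma adjusted p = 0.343).

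Genes of lipid uptake, storage and release were mostly lower. Of 27 tested genes, 17 were lower and 2 higher in CFL, with a median of -1.22. The sum of the list was 299 and 348 TPM in CFL, against 33738 and 34597 TPM in SFL, nearly all of which was fabp11a. cidec, a lipid droplet protein, stood at 44.9 and 65.9 TPM in CFL against 611 and 932 TPM in SFL (log2 difference -3.77, SE 0.22). pnpla3, a droplet lipase, stood at 0.39 and 0.69 TPM in CFL against 39.7 and 58.1 TPM in SFL (-5.0, SE 0.23). Lipoprotein lipase is listed as 2 genes. LPL was listed at 0 in both CFL libraries and stood at 15.5 and 25.04 TPM in SFL (limma adjusted p = 2.16e-06), and the more abundant lpl stood at 5.31 and 4.78 TPM in CFL against 25.8 and 30.1 TPM in SFL (-2.26, SE 0.15). The 2 higher genes, gpam and gpat3, both encode acyltransferases of glycerolipid synthesis, and gpam stood at 11.9 and 11.8 TPM in CFL against 6.85 and 7.59 TPM in SFL (0.65). Other acyltransferases of that synthesis were lower, namely gpat4 (-1.04), agpat2 (-1.94), dgat1a (-1.22) and dgat2 (-2.41), and GPAT4 and dgat1b were not called.

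Fatty acid oxidation was closer to the balance of all genes. Of 36 tested genes, 14 were lower and 6 higher (11 and 9 after quantile normalization), and the median of -0.16 lay close to that of all genes. cpt1aa, which admits long-chain fatty acids to mitochondria, was at 7.74 and 9.94 TPM in CFL against 48.7 and 55.2 TPM in SFL (log2 difference -2.43, SE 0.17). decr2, a peroxisomal reductase listed as 2 genes, both lower, was at 0 and 0.41 TPM in CFL against 28.5 and 29.6 TPM in SFL (-4.66, SE 0.19). hsd17b4, a peroxisomal oxidation enzyme, was at 13.1 and 17.6 TPM in CFL against 40.7 and 51.6 TPM in SFL (-1.53). These 3 falls separated the lines at both densities, as their choice for called differences made likely. In the other direction, hadhb, a subunit of the mitochondrial trifunctional protein and the most abundant gene of the list, was at 243 and 275 TPM in CFL against 142 and 138 TPM in SFL (0.88, SE 0.09).

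The largest falls among enzymes of glucose metabolism included fbp1a and pck1 of gluconeogenesis. The list as a whole was balanced, with 14 of 42 tested genes higher and 15 lower and a median of 0.08. fbp1a, fructose bisphosphatase of gluconeogenesis, was at 11.1 and 14.7 TPM in CFL against 607 and 735 TPM in SFL (log2 difference -5.60, SE 0.15, limma adjusted p = 1.33e-07). pck1, which commits carbon to gluconeogenesis, was at 0.21 and 0.6 TPM in CFL against 34.2 and 61.4 TPM in SFL (-5.07, SE 0.28). gck, the glucokinase of liver and pancreas, was at 0 and 0.1 TPM in CFL against 11.2 and 11.2 TPM in SFL (-3.54, SE 0.38). All 3 were lower in CFL at both densities, as their choice for called differences made likely. pdk2a, a kinase that inhibits pyruvate dehydrogenase, moved the other way, at 78.2 and 103 TPM in CFL against 1.36 and 1.71 TPM in SFL (5.17, SE 0.17). gapdhs, the most abundant member and listed as 2 genes, was at 4510.1 and 5009.5 TPM in CFL against 3726 and 3579 TPM in SFL (0.38), a call that quantile normalization removed (limma adjusted p = 0.0665).

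Glucose and lactate transporters differed member by member, with 7 of 15 tested genes higher and 5 lower (46.7% and 33.3%). The shares of all tested genes were 26.2% and 30.8%. Besides slc2a1a, the lactate carrier slc16a1b was lower in CFL, at 4.66 and 4.52 TPM in CFL against 35.8 and 49.6 TPM in SFL (log2 difference -2.95, SE 0.18). The lactate carrier slc16a3 was higher, at 12.97 and 13.4 TPM in CFL against 0.2 and 0.1 TPM in SFL (3.63, SE 0.15). The 2 lactate carriers thus marked different lines. slc2a9l1, related to urate and sugar carriers and listed as 2 genes, 1 of them tested, was at 4.75 and 6.19 TPM in CFL against 0.16 and 0.03 TPM in SFL (2.56). bsg, basigin, the partner of lactate carriers, was at 1104 and 1104 TPM in CFL against 1458 and 1402 TPM in SFL (-0.37), and its call was lost after median-of-ratios scaling (limma adjusted p = 0.0907).

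Genes of the low-oxygen list were mostly higher in CFL. Of 35 tested, 20 were higher (57.1%) and 5 lower (14.3%), with a median of 0.47. The list holds sensors and regulators of the pathway as well as genes that low oxygen induces, so these counts are not of induced genes alone. Among the regulators, hif1an, hif1ab, hif1al, egln3 and vhll were higher, egln2 was lower, and vhl, arnt and arnt2 were not called. HIGD1A, a mitochondrial protein and the most abundant of the list, was at 1298 and 1327 TPM in CFL against 318 and 338 TPM in SFL (log2 difference 2.0, SE 0.10, limma adjusted p = 1.71e-06), while another gene of that name was not called. ca9, a carbonic anhydrase, was at 148 and 184 TPM in CFL against 12.9 and 12.1 TPM in SFL (3.62, SE 0.13). hmox1a, heme oxygenase, was at 63.03 and 69.9 TPM in CFL against 11.4 and 14.2 TPM in SFL (2.30). These 3 were high in both CFL libraries. The 5 lower genes were ankrd37, bnip3lb, egln2, insig2 and 1 of 2 genes listed as tfr1a. ankrd37, a hypoxia-induced ankyrin protein, was at 1 and 1.47 TPM in CFL against 10.1 and 9.04 TPM in SFL (-2.25). Members also counted in other lists include igfbp1a, hmox1a, plod2 and p4ha1a.

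Cell division genes had the highest share of rises. Of 51 tested mitosis genes, 40 were higher (78.4%) and 2 lower in CFL, with a median of 0.79. top2a, the topoisomerase that untangles sister chromatids, was at 43.6 and 38.4 TPM in CFL against 4.86 and 3.56 TPM in SFL (log2 difference 3.02, SE 0.18, limma adjusted p = 4.85e-06). smc4, a condensin subunit, was at 79.8 and 79.5 TPM in CFL against 18.2 and 17.2 TPM in SFL (2.11, SE 0.19). nuf2, a kinetochore protein, was at 41.01 and 34.9 TPM in CFL against 10.04 and 9.07 TPM in SFL (1.88), and hmmr, a spindle protein, was at 10.6 and 9.87 TPM in CFL against 2.23 and 2.22 TPM in SFL (1.80). In each the CFL libraries lay above the SFL libraries, as the choice of these genes made likely. The 2 lower genes were prc1a, of the central spindle, and 1 of 2 genes listed as ube2c, a ubiquitin enzyme of anaphase, at 27.8 and 30.8 TPM in CFL against 64.5 and 70.95 TPM in SFL.

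DNA replication genes were mostly higher or not called. Of 47 tested, 25 were higher (53.2%) and 2 lower, with a median of 0.57. lig1, DNA ligase of replication, was at 29.6 and 25.1 TPM in CFL against 8.93 and 7.02 TPM in SFL (log2 difference 1.67, SE 0.17). gins3, part of the replicative helicase, was at 20.9 and 19.9 TPM in CFL against 7.53 and 4.19 TPM in SFL (1.69), and ccna2, cyclin A of S phase, was at 17.9 and 16.6 TPM in CFL against 5.35 and 6.14 TPM in SFL (1.44). fen1, a flap nuclease and the most abundant member in CFL, was at 88.04 and 80.9 TPM in CFL against 39.8 and 36.7 TPM in SFL (1.12, SE 0.14). The 2 falls were in pcna, the sliding clamp, and rfc3, a subunit of its loader. pcna was at 50.3 and 49.1 TPM in CFL against 85.8 and 69.2 TPM in SFL (-0.62, SE 0.13), against the direction of most of its list.

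Growth arrest and p53 target genes were close to the shares of all genes, with 10 of 27 tested lower and 6 higher and a median of -0.17. The largest fall was in rps27l, a ribosomal protein-like target of p53 in mammals, at 513 and 549 TPM in CFL against 5212 and 6181 TPM in SFL (log2 difference -3.42, SE 0.13, limma adjusted p = 4.65e-07). The sestrins sesn1 and sesn2, which restrain growth under stress, were at 18.5 and 23.7 TPM in CFL against 125 and 157 TPM in SFL and at 17.2 and 18.4 TPM in CFL against 101 and 129 TPM in SFL. Their log2 differences were -2.69 and -2.61. gadd45ga, a stress sensor of the same list, was higher, at 129 and 119 TPM in CFL against 18.1 and 15.6 TPM in SFL (2.81). Of 32 tested apoptosis regulators, 9 were lower and 4 higher, and 19 were not called. cycsb, cytochrome c, was at 519 and 486 TPM in CFL against 82.99 and 74.6 TPM in SFL (2.66), and the executioner caspase casp3b was at 26.4 and 29.4 TPM in CFL against 69.9 and 71.3 TPM in SFL (-1.31).

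Collagens and the enzymes that process them were higher more often than lower. Of 65 genes in the table, 26 were tested, 13 were higher and 5 lower in CFL, and the median was 0.40. col18a1a, a basement membrane collagen, was at 156 and 177 TPM in CFL against 2.42 and 2.78 TPM in SFL (log2 difference 5.54, SE 0.26, limma adjusted p = 1.34e-06). col5a2a, a fibril collagen, was at 57.8 and 108 TPM in CFL against 5.87 and 7.17 TPM in SFL (3.42), and col12a1a, which decorates fibrils, was at 68.6 and 121 TPM in CFL against 9.66 and 10.4 TPM in SFL (3.06). The CFL library at 100000 cells was the highest of the 4 in each of these. Type I collagen went the other way: col1a1a was at 4.14 and 3.42 TPM in CFL against 35.4 and 27.2 TPM in SFL (-2.75, SE 0.39). Also lower were col1a2, col4a1, col27a1b and serpinh1a, the collagen chaperone.

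Matrix glycoproteins split, with 18 of 39 tested genes higher and 16 lower (46.2% and 41%) and a median of 0.56. fn1a, fibronectin and the most abundant, was at 1010.2 and 1874 TPM in CFL against 274 and 359 TPM in SFL (log2 difference 2.13, SE 0.29). LTBP3, a binding protein of latent TGF-beta, was at 13.7 and 26.5 TPM in CFL against 0.48 and 1.11 TPM in SFL (3.51). vcana, the proteoglycan versican listed as 2 genes, both lower, was at 16.3 and 19.1 TPM in CFL against 152 and 151 TPM in SFL (-3.03), and ccn1, a matricellular protein, was at 15.2 and 22.7 TPM in CFL against 142 and 171 TPM in SFL (-3.0). Here fibronectin and LTBP3 marked CFL, and versican and ccn1 marked SFL. Of 21 tested proteases and inhibitors, 7 were higher and 8 lower (33.3% and 38.1%, against 26.2% and 30.8% of all tested genes). The membrane-bound protease inhibitor reck was at 12.5 and 22.9 TPM in CFL against 1.38 and 1.15 TPM in SFL (2.99), the serine protease htra1b at 17.7 and 20.8 TPM in CFL against 1.47 and 2.31 TPM in SFL (2.82), and the plasminogen activator plat at 38.5 and 70.5 TPM in CFL against 8.46 and 8.62 TPM in SFL (2.48). mmp19, a matrix protease, was lower, at 7.88 and 7.94 TPM in CFL against 33.8 and 28.45 TPM in SFL (-1.84). ctsd, the most abundant protease of the list and a lysosomal one, was at 834 and 1002 TPM in CFL against 1945 and 2056 TPM in SFL (-1.13).

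Contractile and myofibroblast genes were mostly lower in CFL. Of 30 tested, 17 were lower (56.7%) and 7 higher, with a median of -0.45. acta2, smooth muscle actin and a marker of activated stellate cells, was at 0.43 and 0.17 TPM in CFL against 101 and 103 TPM in SFL (log2 difference -6.31, SE 0.16, limma adjusted p = 9.97e-08). csrp1b, a cytoskeletal LIM protein, was at 0.56 and 0.87 TPM in CFL against 94.6 and 87.99 TPM in SFL (-5.76). myh9a, a non-muscle myosin, was at 0.16 and 0.23 TPM in CFL against 36.5 and 40.4 TPM in SFL (-5.05), and vcla, vinculin, at 0.07 and 0.19 TPM in CFL against 17.6 and 17.02 TPM in SFL (-4.02). All 4 were below 1 TPM in both CFL libraries. The genes of the paired symbols myh9b and vclb were present in both lines. myh9b was at 96.1 and 127 TPM in CFL against 116 and 137 TPM in SFL and was not called (limma adjusted p = 0.311). vclb was lower, at 26.8 and 32.2 TPM in CFL against 54.0 and 50.2 TPM in SFL (-0.805). actb2, a beta actin and the most abundant member, was at 1293 and 1424 TPM in CFL against 1764 and 1697 TPM in SFL (-0.35, limma adjusted p = 0.0474), a call that both other scalings and the omission of any 1 large library removed (limma adjusted p up to 0.18). The stellate and fibroblast markers given above were 7 of 12 lower and 5 higher. The lower ones include acta2, tagln and desma, which are counted in both lists. Among them too was lrata, the retinol-storing enzyme of stellate cells, listed at 0 in CFL and at 9.81 and 9.17 TPM in SFL. The higher ones were col5a1, col5a2a, cygb1, pdgfra and pdgfrb. pdgfra, a growth factor receptor, was at 5.66 and 9.21 TPM in CFL against 0.06 and 0.07 TPM in SFL (2.95).

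Over the list of junction proteins and keratins, 14 of 34 tested genes were higher and 12 lower in CFL. The tested keratins of the list, krt4, krt8, krt18a.1 and krt18b, were lower; krtcap2, counted among the higher genes, is no keratin. krt8, a keratin of simple epithelia, was at 555 and 553 TPM in CFL against 6157 and 4707 TPM in SFL (log2 difference -3.28, SE 0.20), and krt4 at 80.6 and 98.01 TPM in CFL against 2294 and 2066 TPM in SFL (-4.60, SE 0.17). In both the lines did not overlap, as is likely for genes with large called differences. The opposite direction was seen in cdh17 (above) and in CDH3, placental cadherin, at 93.7 and 119 TPM in CFL against 8.6 and 9.43 TPM in SFL (3.41). tjp3, a tight junction scaffold, was at 10.6 and 14.8 TPM in CFL against 0.17 and 0.11 TPM in SFL (3.57).

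Interferon and nucleic acid sensing genes were higher in CFL. Of 43 tested, 24 were higher (55.8%) and 2 lower, with a median of 0.77. isg15, an interferon-induced ubiquitin-like protein, is listed as 4 genes, 3 of them tested, whose reads may have been divided between them. The most abundant was at 26.03 and 62.4 TPM in CFL against 3.03 and 1.95 TPM in SFL (log2 difference 3.59, SE 0.44, limma adjusted p = 0.000238). Another was at 9.5 and 34.8 TPM in CFL against 0 and 0.87 TPM in SFL, and another at 16.8 and 50.3 TPM in CFL and listed at 0 in SFL. In these 3 genes the CFL library at 100000 cells was the highest. tap2a, a peptide transporter of antigen presentation listed as 2 genes, both higher, was at 7.95 and 4.37 TPM in CFL and listed at 0 in both SFL libraries. psmb8a, an interferon-inducible proteasome subunit, was at 164 and 172 TPM in CFL against 69.2 and 62.4 TPM in SFL (1.34, SE 0.14). The 2 lower genes were irf8, an interferon regulatory factor, and socs3a, a feedback inhibitor.

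Cytokines, chemokines and their receptors were higher in 29 of 46 tested genes (63.0%) and lower in 8, with a median of 0.82. ccr6b, a chemokine receptor, was at 14.5 and 24.7 TPM in CFL and listed at 0 in both SFL libraries. il10ra, a chain of the interleukin 10 receptor, was at 27.7 and 31.5 TPM in CFL against 2.2 and 1.73 TPM in SFL (log2 difference 3.37, SE 0.16). il17rd, a receptor of the interleukin 17 family, was at 7.22 and 9.05 TPM in CFL against 0 and 0.02 TPM in SFL (3.17). Each marked CFL at both densities, as their choice for called differences made likely. ackr4b, a scavenger receptor of chemokines, was lower, at 1.08 and 2.68 TPM in CFL against 40.4 and 52.4 TPM in SFL (-4.09, SE 0.28). ptgs2a, cyclooxygenase 2 and the most abundant of the list, was at 68.7 and 89.4 TPM in CFL against 36.3 and 34.4 TPM in SFL (1.13, SE 0.25). Beside these lists, PTPRC was at most 0.26 TPM. Of the 31 genes of the leukocyte list in the table, cd3eap included, 25 were under 1 TPM in all 4 libraries. The part of leukocytes was not tested.

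Proteasome subunits were lower in CFL with a small group of exceptions. Of 45 tested, 34 were lower (75.6%) and 8 higher, with a median of -0.66. psmb6, a catalytic beta subunit of the standard proteasome, was at 244 and 257 TPM in CFL against 1002 and 838 TPM in SFL (log2 difference -1.87, SE 0.10, limma adjusted p = 3.37e-06). Among the 8 higher genes were psmb8a, psmb9a, psmb12 and psmb13a, which are inducible or duplicated forms of catalytic subunits in fish. psmb10, another inducible form, was not called (-0.28, limma adjusted p = 0.0862). psmb13a was at 21.9 and 20.8 TPM in CFL against 3.95 and 3.93 TPM in SFL (2.18), and psmb9a at 107 and 93.00 TPM in CFL against 40.7 and 29.7 TPM in SFL (1.49). The remaining 4 were psma1, psma6l, psmb5 and psmd10, and psma6l was at 204 and 221 TPM in CFL against 67.3 and 60.5 TPM in SFL (1.72). Of these, psmb5 (0.54) is like psmb6 a catalytic subunit of the standard proteasome, so such subunits differed in both directions. psmb1, the most abundant subunit, was at 1569 and 1421 TPM in CFL against 1708 and 1490.0 TPM in SFL and not called, with a difference of -0.10 that turned to 0.0019 after quantile normalization and to 0.0031 without the SFL library at 50000 cells.

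Chaperones of the cytosol were mostly lower. Of 45 tested heat shock and chaperone genes, 25 were lower (55.6%) and 7 higher (20 and 10 after quantile normalization), with a median of -0.42. hspa8, the constitutive HSP70 and the most abundant, was at 1506 and 1378 TPM in CFL against 4290.5 and 3982 TPM in SFL (log2 difference -1.52, SE 0.08, limma adjusted p = 2.77e-06). hspb1, a small heat shock protein, was at 0.29 and 0.02 TPM in CFL against 73.9 and 72.5 TPM in SFL (-6.02, SE 0.20), and bag2, an HSP70 partner, at 4.73 and 3.18 TPM in CFL against 22.9 and 22.9 TPM in SFL (-2.29). dnajb4, another HSP70 partner, was higher, at 6.1 and 6.13 TPM in CFL against 0.37 and 0.07 TPM in SFL (2.56). Chaperones of the endoplasmic reticulum were counted in the list of the unfolded protein and integrated stress responses, of whose 57 tested genes 27 were higher and 19 lower, with a median of 0.27. PDIA6, a disulfide isomerase listed also as pdia6 (0.64), was at 57.8 and 57.4 TPM in CFL against 15.2 and 17.9 TPM in SFL (1.74). ddit3, the stress factor CHOP, was at 31.5 and 25.2 TPM in CFL against 226 and 237 TPM in SFL (-3.0, SE 0.13), and atf4a, a factor upstream of it, at 492 and 536 TPM in CFL against 786 and 761 TPM in SFL (-0.59). Both stress factors were lower in CFL.

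Genes of oxidant defence went both ways, with 25 of 56 tested higher and 19 lower and a median of 0.15. fth1b, a ferritin heavy chain and the most abundant gene of the list, was at 31677 and 35384 TPM in CFL against 22932 and 22616 TPM in SFL (log2 difference 0.56, SE 0.09), and its call was lost under quantile normalization (limma adjusted p = 0.203). gclm, the modifier subunit of glutathione synthesis, was at 127 and 207 TPM in CFL against 8.27 and 11.8 TPM in SFL (3.91, SE 0.25). gsta.1, a glutathione transferase, was at 11.4 and 15.7 TPM in CFL against 282 and 294 TPM in SFL (-4.33, SE 0.24). gclm marked CFL and gsta.1 marked SFL. nqo1, a quinone reductase, is listed as 2 genes, both lower in CFL, and the less abundant was at 0 and 0.41 TPM in CFL against 16.8 and 14.3 TPM in SFL (-3.80). sod3a, an extracellular superoxide dismutase, was listed at 0 in both CFL libraries and stood at 5.69 and 26.4 TPM in SFL, so that its level rested on the library at 100000 cells.

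Of 38 tested genes of xenobiotic and aldehyde metabolism, 19 were lower and 11 higher in CFL, with a median of -0.59. sult6b1, a sulfotransferase and the most abundant, was at 86.7 and 86.2 TPM in CFL against 620.2 and 525 TPM in SFL (log2 difference -2.71, SE 0.10). aldh1l1, a folate-linked dehydrogenase, was at 0.25 and 0.16 TPM in CFL against 42.8 and 67.2 TPM in SFL (-5.50), and aldh1a2, which makes retinoic acid, at 12.6 and 9.8 TPM in CFL against 201 and 200.3 TPM in SFL (-4.06). The glucuronosyltransferases ugt1b2 and ugt5g1, which join glucuronic acid to drugs and steroids, rose instead. ugt1b2 was at 73.7 and 63.1 TPM in CFL against 0.6 and 0.38 TPM in SFL (5.54) and ugt5g1 at 35.7 and 39.5 TPM in CFL against 0.52 and 0.77 TPM in SFL (4.56).

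Among 88 tested genes of lysosomes, autophagy and the proton pump, 38 were lower and 21 higher, with a median of -0.22. sqstm1, the autophagy receptor p62, was the most abundant and went against that balance, at 12084 and 16181 TPM in CFL against 1367 and 1381 TPM in SFL (log2 difference 3.35, SE 0.15, limma adjusted p = 1.16e-06). The sum of the list was 25856 and 32928 TPM in CFL, against 21384 and 21757 TPM in SFL. scarb2a, a lysosomal membrane protein, was at 10.1 and 16.6 TPM in CFL against 81.6 and 109 TPM in SFL (-2.77). ctsl.1, a cathepsin, is the symbol of 16 genes, 6 of them tested, of which 5 were lower and 1 higher; the most abundant was at 0.12 and 0.18 TPM in CFL against 28.8 and 22.96 TPM in SFL (-4.54).

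Amino acid metabolism was balanced in number, with 19 of 57 tested genes higher and 16 lower and a median of 0.06. The differences of single members were large all the same. ASS1, of the urea cycle, was at 40.8 and 28.00 TPM in CFL against 0.38 and 0.07 TPM in SFL (log2 difference 4.84, SE 0.25). mat2ab, a methionine adenosyltransferase, was at 846 and 742 TPM in CFL against 46.4 and 42.7 TPM in SFL (4.12, SE 0.11). glud1a, glutamate dehydrogenase, was at 1.28 and 2.14 TPM in CFL against 184 and 206 TPM in SFL (-6.19, SE 0.17). The first pair marked CFL and the last SFL, like aoc1. cthl, of cysteine synthesis and the most abundant, was at 820.2 and 919.5 TPM in CFL against 521 and 585 TPM in SFL (0.65).

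Growth factor genes and their receptors were higher in 17 and lower in 11 of 37 tested genes, with a median of 0.42. Midkines headed the list in both directions and are described with the gene pairs below. bdnf, a neurotrophin, was at 42.7 and 63.4 TPM in CFL and listed at 0 in both SFL libraries. Of 40 tested genes of the insulin and IGF pathway, 12 were higher, 8 lower and 20 not called, and the median of -0.06 turned to 0.00021 after median-of-ratios scaling (0.018 with equalised quantiles). IGFBP3 was at 18.3 and 18.8 TPM in CFL against 0.4 and 1.01 TPM in SFL (log2 difference 3.54, SE 0.20), and irs2b, an adaptor of the insulin receptor, at 11.7 and 13.01 TPM in CFL against 0.77 and 0.81 TPM in SFL (2.90, SE 0.15). pik3r3b, a regulatory subunit of PI3 kinase listed as 2 genes, was lower in both copies. insra, the insulin receptor, named after its values were seen, was at 4.17 and 4.14 TPM in CFL against 4.03 and 5.06 TPM in SFL and was not called (limma adjusted p = 0.607).

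Wnt and TGF-beta signalling genes were balanced, with 13 higher, 14 lower and 30 not called of 57 tested. Besides dkk3b and fstl1a, the members named by size were bone morphogenetic proteins. bmp6 was at 0.08 and 0.15 TPM in CFL against 18.2 and 25.1 TPM in SFL (log2 difference -4.33, SE 0.18). bmp16 was listed at 0 in both CFL libraries and stood at 13.6 and 18.5 TPM in SFL. Both ligands marked SFL. Clock genes numbered 12 higher and 7 lower of 37 tested, with a median of 0.44. With either other scaling they numbered 17 higher and 7 lower. nr1d1, a repressor of the clock, was at 0.86 and 1.23 TPM in CFL against 27.02 and 28.7 TPM in SFL (-3.82, SE 0.26). Its relative nr1d4b was at 6.75 and 7.94 TPM in CFL against 0.53 and 0.45 TPM in SFL (2.48, SE 0.19). csnk1e was lower, at 1.41 and 0.7 TPM in CFL against 13.7 and 14.1 TPM in SFL (-2.88, SE 0.30). Also lower was bhlhe41, the most abundant clock gene, at 113 and 126 TPM in CFL against 177 and 180 TPM in SFL (-0.57, SE 0.10).

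Despite the level of snap25a, genes of neuronal vesicles and membrane fusion were more often lower, 15 of 32 tested against 6 higher, with a median of -0.39. The 6 were snap25a, stx2b, syt2a, syt5a, syt11a and syt11b. syt5a, a calcium sensor of vesicles, was at 5.12 and 7.35 TPM in CFL against 0.1 and 0 TPM in SFL (log2 difference 2.77, SE 0.21). stxbp3, a partner of syntaxins, was at 2.32 and 3.94 TPM in CFL against 10.3 and 15.2 TPM in SFL (-1.74). None of the 37 hox genes in the table reached the level for testing, and 30 of them were listed at 0 in all 4 libraries.

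Lists of the basic machinery had medians near 0. Of 81 tested cytosolic ribosomal protein genes, 26 were higher, 7 lower and 48 not called, with a median of 0.10, while their summed share of TPM was the higher in CFL (above). rps24, the most abundant, was at 19491 and 14717 TPM in CFL against 9286 and 9335 TPM in SFL (log2 difference 0.86, SE 0.13), and RPL27A was at 13710.2 and 11867 TPM in CFL against 6263 and 5388 TPM in SFL (1.13). Mitochondrial ribosomal proteins numbered 23 higher and 12 lower of 75 (29 and 6 after quantile normalization). Nuclear genes of oxidative phosphorylation numbered 30 higher and 30 lower of 96 (34 and 20 after median-of-ratios scaling, 39 and 19 with equalised quantiles). The medians of both lists, -0.03 and -0.04, changed sign with either other scaling. Single subunits departed from this balance. cox6c was at 3420.0 and 2825 TPM in CFL against 994 and 1111 TPM in SFL (1.56, SE 0.13), cox6b1 at 379 and 329 TPM in CFL against 32.9 and 37.3 TPM in SFL (3.3) and cox4i1l at 3.92 and 4.88 TPM in CFL against 38.4 and 34.5 TPM in SFL (-2.80).

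Fish often keep both copies of a gene from an ancient genome duplication, named with a final a and b. Among 929 pairs of symbols that differ only in this letter and were both tested, 126 (13.6%) were called in opposite directions and 187 (20.1%) in the same direction. Over all tested genes 26.2% were higher and 30.8% lower, so unrelated genes would also often be opposite. Whether these pairs depart from pairs of unrelated genes was not tested. In 424 pairs 1 gene was called and in 192 none. Some such pairs, as cebpa and cebpb, are distinct genes rather than duplicates. At 2-fold or more in both, 40 pairs were opposite and 63 the same. The 6 pairs named below were chosen for large differences in opposite directions.

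Midkine was the pair with the largest contrast. mdka was at 1655 and 1329 TPM in CFL against 63.2 and 36.6 TPM in SFL (log2 difference 4.92, SE 0.33, limma adjusted p = 8.08e-06), and mdkb, as given above, was at 0.24 and 0 TPM in CFL against 3426 and 3842 TPM in SFL. Each line therefore held a midkine gene above 1000 TPM, but not the same one. hnf1ba was listed at 0 in both CFL libraries and stood at 3.5 and 5.02 TPM in SFL, while hnf1bb was high in CFL. emilin1a, an elastic fibre protein, was at 0.34 and 0.33 TPM in CFL against 115 and 142 TPM in SFL (-6.59), and emilin1b at 44.4 and 46.5 TPM in CFL against 6.35 and 7.63 TPM in SFL (2.54).

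The remaining pairs, chosen by the same rule, were of less abundant genes. agxta, an aminotransferase of glyoxylate, was at 51.7 and 58.9 TPM in CFL against 1.88 and 3.84 TPM in SFL (log2 difference 3.91, SE 0.29), and agxtb was listed at 0 in both CFL libraries and stood at 6.25 and 7.99 TPM in SFL. bin2a, of the membrane-bending BAR domain proteins, was at 16.8 and 20.8 TPM in CFL against 1.01 and 1.31 TPM in SFL (3.19), and bin2b at 2.18 and 2.46 TPM in CFL against 17.8 and 21.9 TPM in SFL (-2.65). ppp1r14aa, an inhibitor of myosin phosphatase, was at 0.07 and 0.08 TPM in CFL against 19.8 and 20.6 TPM in SFL (-4.30), and ppp1r14ab at 4.24 and 5.16 TPM in CFL against 0 and 0.11 TPM in SFL (2.43). In the 6 pairs the 12 limma adjusted p ran from 6.69e-09 to 1.84e-05. The deposited values are labelled as TPM of the program RSEM, but its settings are not given, so values of near-identical copies are uncertain.

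**Figure D4:**
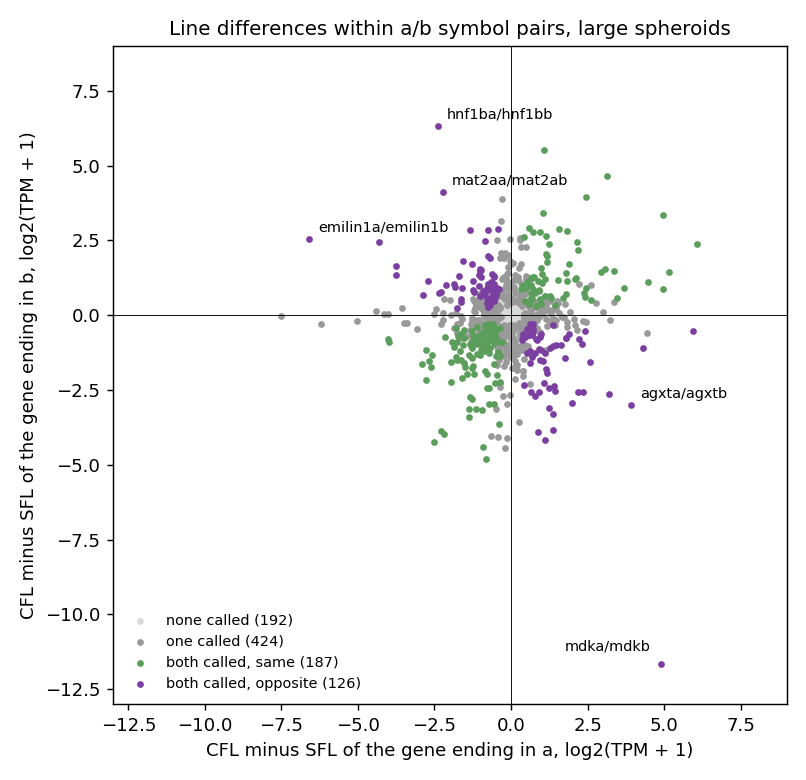
Each point is a pair of symbols ending in a and b, with the CFL minus SFL difference in log2(TPM + 1) of the gene ending in a on the horizontal axis and of the gene ending in b on the vertical axis. Purple points are the 126 pairs called in opposite directions, green points the 187 called in the same direction, and grey points the rest. The midkine pair lies farthest from the others, at 4.92 and -11.67.

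A set of genes was present in 1 line and near 0 in the other. At least 5 TPM in both CFL libraries and at most 0.1 TPM in both SFL libraries was met by 100 of 27420 genes (0.365%), of which 61 were listed at 0 in both SFL libraries. The reverse was met by 113 genes (0.412%), 64 of them listed at 0 in both CFL libraries. Of the 100, 82 were also at most 0.1 TPM in both small SFL spheroids, and of the 113, 85 in both small CFL spheroids. Besides pax6a and bdnf, the CFL genes with a symbol and the highest levels included chrnb5b, a subunit of nicotinic acetylcholine receptors, at 61.96 and 58.97 TPM in CFL against 0.01 and 0 TPM in SFL, and slc1a4, a carrier of neutral amino acids, at 52.8 and 59.4 TPM in CFL and listed at 0 in SFL. Those of SFL were aoc1, slc2a1a, fa2h, myl7 and nppal. fa2h, which hydroxylates fatty acids, was at 0.02 and 0.07 TPM in CFL against 93.2 and 106 TPM in SFL. myl7, a myosin light chain of the heart, and nppal, a natriuretic peptide-like gene, were listed at 0 in CFL and stood at 52.5 and 65.04 TPM and 49.3 and 43.5 TPM in SFL. The muscle markers beside these genes are those summed above, and their part was not tested. Of that list tbx5a went the other way, at 1.78 and 2.02 TPM in CFL and listed at 0 in SFL (1.53). MYH6, nkx2.5, tnnc1a and gata4 of the list were at most 0.06 TPM in all 4 libraries.

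The line difference of large spheroids was then set against that of small spheroids in the same fit. It differed at a limma adjusted p under 0.05 for 0 of 13783 genes (0.00%), with a smallest adjusted p of 0.105, while 1132 genes (8.21%) had an unadjusted p under 0.05. Of these, 442 were more positive and 690 more negative in large spheroids. The 2 differences had a Pearson r of 0.959 across genes. Their signs were opposite at both densities of each size class for 180 genes higher in CFL only when large and 264 genes lower only when large, of 13783. When single libraries were left out the count of called genes was between 0 and 5, and it was 6 without both libraries at 50000 cells.

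The 6 symbols that ranked first by p all had a lower difference in large spheroids. ndrg3a, of the NDRG family, was at 18.1 and 11.5 TPM in CFL against 2.42 and 1.85 TPM in SFL, and in small spheroids at 52.5 and 60.1 TPM in CFL against 1.01 and 0.9 TPM in SFL. kif1aa, a kinesin motor of vesicle transport, was at 1.75 and 2.91 TPM in large CFL spheroids and 17.4 and 14.9 TPM in small ones, and at most 0.06 TPM in SFL. eno2, the enolase of neurons, was at 2.18 and 1.74 TPM in CFL against 0.38 and 0.19 TPM in SFL, and in small spheroids at 7.9 and 7.33 TPM in CFL against 0.05 and 0.14 TPM in SFL. These 3 were higher in CFL at every density but less so in large spheroids. sgsm1a, a modulator of small G proteins, behaved in the same way, at 1.32 and 1.97 TPM in large and 9.49 and 7.98 TPM in small CFL spheroids, and at most 0.04 TPM in SFL. The large minus small values of the line difference were -2.56, -2.34, -1.77 and -1.84, with limma adjusted p from 0.105 to 0.108, so none passed the threshold; ndrg3a passed it without the CFL library at 50000 cells (limma adjusted p = 0.0408).

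The other pair of genes changed sides. npnta, nephronectin, a matrix ligand of integrins, was lower in large CFL spheroids, at 15.3 and 13.7 TPM in CFL against 29.9 and 34.7 TPM in SFL, while in small spheroids it was at 39.1 and 44.99 TPM in CFL against 27.2 and 33.4 TPM in SFL. asns, asparagine synthetase, was at 294 and 294 TPM in CFL against 366 and 373 TPM in SFL in large spheroids, and at 406 and 382 TPM in CFL against 286 and 270.2 TPM in SFL in small ones. In both genes CFL lay below SFL at 50000 and 100000 cells and above it at 10000 and 25000 cells. The large minus small values were -1.57 (SE 0.21) and -0.83 (SE 0.11), each with a limma adjusted p of 0.105. asns is listed as 3 genes, whose reads may have been divided, and the other copies had large minus small values of -0.27 and -0.22 (limma adjusted p = 0.739 and 0.691).

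**Figure D5:**
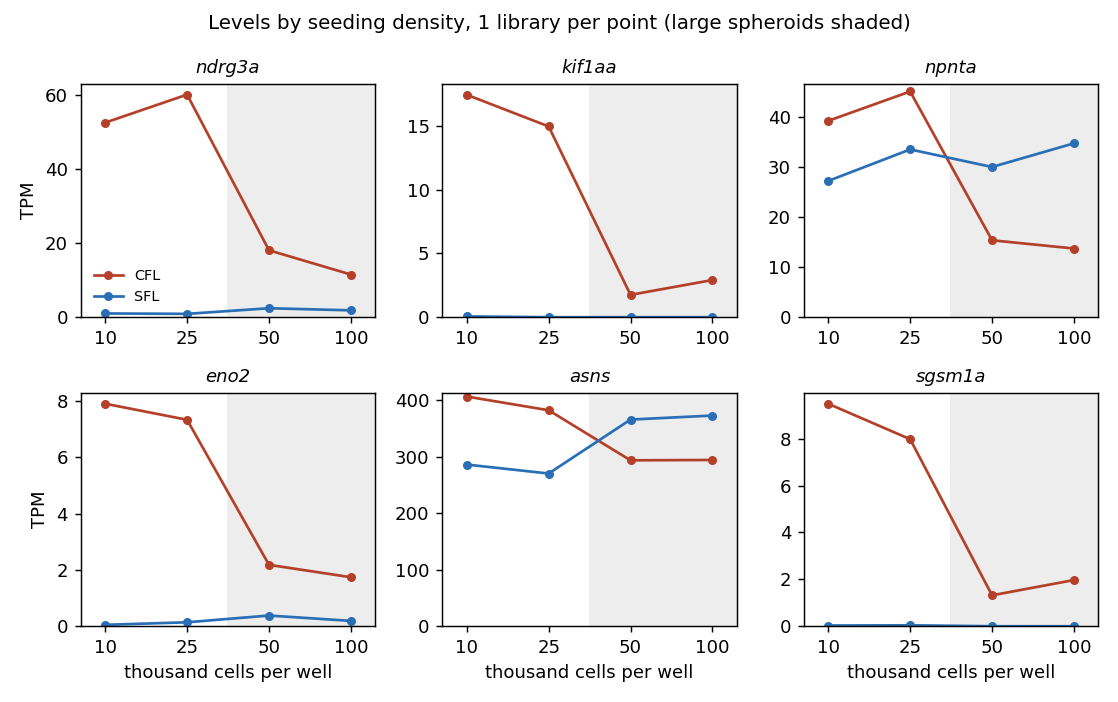
TPM by seeding density in units of 1000 cells per well for the 6 genes, CFL in red and SFL in blue, 1 library per point, with the large spheroids shaded. In CFL the level is lower at 50 and 100 than at 10 and 25 for all 6 genes, and in asns SFL is higher in large spheroids.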

How the data were processed

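RNA was measured in 8 libraries, 1 for each of 2 lines at each of 4 densities. Per the labels' protocols, RNA was extracted with a mirVana kit, libraries were made with a stranded poly(A) kit, and single reads of 75 bases were taken. The submitters' processing notes list STAR 2.7.3a and RSEM 1.3.0 without a role, and the deposited values are labelled as RSEM TPM. The genome build, annotation and strand setting are not given in the sources used here. The deposited table holds gene-level TPM made by the authors and no read counts, so depth is unknown, no interval for counting error can be given, and a count model was not run. From these values log2(TPM + 1) was computed, and the 13783 of 27420 genes with a mean of at least 1 TPM over the 8 libraries entered 1 linear model in limma 3.58.1 (R 4.3.3), with 1 mean for each line at each size class, a mean-variance trend and Benjamini-Hochberg adjustment. All 8 libraries share 1 estimate of the spread. An exact permutation test of 2 against 2 libraries cannot go below p = 0.333 and was not used. The fit was tested on simulated data. The text names the 12 largest called rises and falls with a symbol, the same sign at both densities and at least 5 TPM in the higher line. From each list it draws on up to 4 called members by size and the most abundant one, though not every one of these is printed. It also names 6 gene pairs, 5 genes present in 1 line, and 6 genes of the large minus small comparison. Others are said to be chosen after their values were seen, complete a count of few members or show a limit of a count. The members of the comparison and the lists were chosen with earlier results of these data known. 1 gene that the rule chose is not reported here. Gene symbols are those of the deposited table. Alternatives were another pseudocount (0.1), a filter at 5 TPM and none, median-of-ratios scaling, quantile normalization, density as a replicate block, the 4 large libraries alone and the omission of each library.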

Additional observations from a re-analysis of the deposited data

Results flagged for a closer look

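In npnta and asns the lines differed in opposite directions in large and small spheroids, in every library. The large minus small value of the CFL minus SFL log2 difference was -1.57 for npnta and -0.83 for the asns gene named above. The test of that difference gave a limma adjusted p of 0.105 for each, so neither passed the threshold of 0.05.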

How the results depend on the processing

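The count of genes called between the lines, 7857, lay between 6700 and 7592 when single libraries were left out, and that at 2-fold or more, 4094, between 4021 and 4269. Both stayed within 1.5 times under the other settings, among them median-of-ratios scaling (8390) and quantile normalization (8336), whose splits are given above, the 5 TPM filter (5765 of fewer genes tested), the 4 large libraries alone (6674) and, a setting chosen after seeing the data, without both libraries at 50000 cells (6913). Libraries of the 2 lines share a density but no stated pairing: deviations at equal density had r = 0.0152 in small and 0.229 in large spheroids, and with density as a replicate block 8567 genes were called. For the large minus small difference, 0 genes were called, between 0 and 5 when single libraries were left out, and 6 without both libraries at 50000 cells; ndrg3a passed without the CFL library at 50000 cells (limma adjusted p = 0.0408). Among single genes, MPEG1 lay between -0.60 and 0.0004 and psmb1 between -0.19 and 0.0031 when single libraries were left out, the positive values coming without the CFL and the SFL library at 50000 cells in turn, and psmb1 was at 0.0019 after quantile normalization; neither was called. Calls were lost for apoa4a, bsg, gapdhs and fth1b under the settings given with them. For actb2 they were lost also with the 0.1 pseudocount, with no filter, without either SFL small library and without both libraries at 50000 cells (limma adjusted p = 0.0519, 0.0973, 0.0744, 0.0747 and 0.323). The cause of these shifts was not tested. Without counts, low values could not be weighed by depth, and with 1 library per density no spread between equal cultures was measured.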
